A study of Mus musculus with 12 samples.

Results

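Trav14 is a family of V segments of the mouse TCR alpha chain, and its chains were followed through 12 TCR libraries of CD8+ T cells. A chain was taken as a member when it was spliced to the alpha constant region (TRAC) and the V region name given to it began with a Trav14 gene, joint names and Trav14d-3-dv8 included. This held for 76169 of the 509702 TRAC clonotypes listed over the 12 libraries, with 169703 of their 1145380 UMIs. Clonotypes were distinguished by their V and J names and their CDR3 bases, and a UMI is a molecular tag that marks 1 cDNA molecule, so several UMIs can come from the same cell. The family was selected on measured values, namely its share of the repertoire, its Traj22 and Traj23 partners, its CDR3 length and its CDR3s listed in all 12 libraries. These values are therefore given as descriptions. Libraries were made from tumors, spleens and tumor-draining lymph nodes (tdLNs) of wild-type mice bearing a murine head and neck squamous cell carcinoma (Q1-2). The mice had received BF10 (an antibody that blocks the CSF-1 receptor, fused to interleukin-10), αCSF1R (such an antibody alone), IL-10-Fc (interleukin-10 fused to an Fc) or control IgG. Each combination of tissue and treatment had 1 library, made from the mixed RNA of 3 mice, after 3 doses spaced 3 days apart. All agents are labelled as dosed at 30 mg/kg, while the methods name different doses for IL-10-Fc and BF10. The libraries held from 23650 (αCSF1R tumor) to 137078 (IL-10-Fc tdLN) TRAC UMIs, and the smallest is the least precise. Because there was 1 library per group, treatments could not be tested against each other. The intervals below are 95% Wilson intervals and cover counting error only, not the spread between mice. The cells were isolated with CD8 microbeads, and since the files list TCR chains alone, the CD8 identity could not be checked from other genes. The sample titles name CD8 for tumors and spleens but not for tdLNs, whose cell type label is CD8 T cells all the same. The tdLN libraries also held more UMIs of delta chains, 4480 to 7866, against 873 to 3192 in tumors and spleens, and the part of this in the tdLN values below was not tested.

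A TCR alpha chain forms when a V segment is joined to a J segment in the thymus. Before the ends are ligated, bases can be removed from both, and the enzyme TdT can add bases that neither segment encodes. The stretch across the joint is the CDR3, the part of the chain that faces the peptide. CDR3s that need few added bases can arise in many cells independently, and such widely shared chains are called public. The Trav14 segments lie among other V segments upstream of the delta genes, and Trav14d-3-dv8 can serve in both alpha and delta chains. In this locus the V segments carry the suffixes d and n where a block of the locus was duplicated.

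GRCm38 holds 9 Trav14 genes on the plus strand of chromosome 14, between 52855665 (Trav14d-1) and 53763694 (Trav14-3), a span of 908 kb. From the codon of the conserved cysteine on, all 9 end in the same 13 bases, so the CDR3 itself cannot tell them apart. Upstream of it they differ by 0 to 20 bases (median 11) over the last 270 bases of the segment. The germline ends that meet in the most abundant shared chain are shown first, followed by the Traj13 and Traj23 ends that are used for comparison, each in RefSeq coordinates on GRCm38 and given as far as it lies in the CDR3.
Trav14-2 end (chr14:53641213-53641225): tgtgcagcaagtg
Traj22 start (chr14:54197248-54197276): catcttctggcagctggcaactcatcttt
Traj13 start (chr14:54205741-54205766): caaattctgggacttaccagaggttt
Traj23 start (chr14:54196081-54196109): tgaattataaccaggggaagcttatcttt

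The shared chains were read against these ends. Bases that match neither the V segment from its cysteine codon nor the J segment up to its last CDR3 codon are in capitals, with the match read from each end to its first mismatch, and a chain with no capitals was made of germline bases alone. These are the leading nucleotide forms of the 9 shared chains with the largest mean shares, in that order, together with the next form of the first chain. They are shown so that the part of each joint outside the germline, 0 to 2 bases in the leading forms, can be read directly.
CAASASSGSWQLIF, first form: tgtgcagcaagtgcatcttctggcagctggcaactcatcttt
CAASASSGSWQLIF, second form: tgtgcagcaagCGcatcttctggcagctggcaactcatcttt
Uncut Traj13 joint, first form: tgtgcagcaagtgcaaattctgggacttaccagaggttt
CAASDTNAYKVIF, first form: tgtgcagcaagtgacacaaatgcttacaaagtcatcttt
Traj12 chain of 14 residues, first form: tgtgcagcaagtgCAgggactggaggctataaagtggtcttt
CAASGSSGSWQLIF, first form: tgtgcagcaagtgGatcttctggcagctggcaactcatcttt
Traj12 chain of 13 residues, first form: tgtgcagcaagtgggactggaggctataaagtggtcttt
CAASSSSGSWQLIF, first form: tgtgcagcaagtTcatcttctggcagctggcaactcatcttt
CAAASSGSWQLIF, first form: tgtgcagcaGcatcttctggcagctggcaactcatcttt
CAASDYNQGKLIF, first form: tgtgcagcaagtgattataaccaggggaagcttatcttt

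The first form of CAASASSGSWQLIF is the 13 bases of the V end followed by all 29 bases of Traj22, with nothing removed and nothing added. The chain with Traj13, of 13 residues, is led by the same uncut joint with that segment. In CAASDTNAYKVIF, 2 bases could come from either segment.

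Trav14 was among the most used V families, second of 21 by its mean share of TRAC UMIs. Over the 12 libraries it took 14.7% ± 2.45 (SD, n = 12 libraries) of TRAC UMIs and 14.7% ± 1.61 of TRAC clonotypes. In the BF10, αCSF1R, IL-10-Fc and control IgG tumors the share of UMIs was 14.9% (14.7% to 15.1%), 12.5% (12.1% to 12.9%), 14.4% (14.2% to 14.7%) and 8.97% (8.78% to 9.17%). In spleens it was 11.8% (11.7% to 12.0%), 17.0% (16.8% to 17.2%), 15.1% (14.9% to 15.3%) and 15.6% (15.4% to 15.8%) in the same order. In tdLNs it was 16.9% (16.6% to 17.2%), 17.2% (16.9% to 17.4%), 16.1% (15.9% to 16.3%) and 15.7% (15.5% to 15.97%). The control IgG tumor and the BF10 spleen were the low libraries of their tissues, and the 4 tdLN libraries lay close together.

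**Figure D1:**
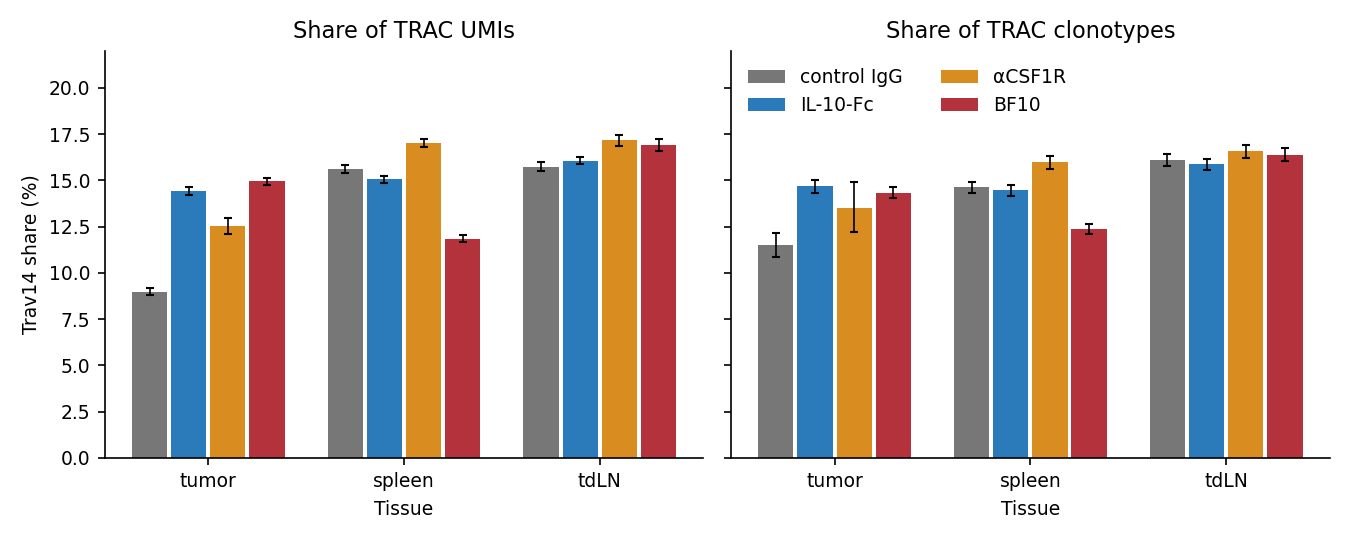
Share of Trav14 chains among TRAC UMIs (left) and TRAC clonotypes (right), in percent, by tissue and treatment, 1 library per bar, with 95% Wilson intervals as error bars. The control IgG tumor library (8.97% of UMIs) and the BF10 spleen library (11.8% of UMIs) were the lowest of their tissues on both measures.

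Counted by clonotypes, with each clonotype once, the low libraries stayed low but by less. A CDR3 listed under several V region names counted once for each name. Trav14 made up 11.5% of TRAC clonotypes in the control IgG tumor, against 14.3%, 13.5% and 14.7% in the BF10, αCSF1R and IL-10-Fc tumors. In spleens the values were 14.6% for control IgG and 12.3%, 15.96% and 14.4% for these 3 treatments, and in tdLNs they lay between 15.9% and 16.6%. Without the 10 most abundant TRAC clonotypes of each library, which need not be Trav14 chains, the UMI share was 11.5% in the control IgG tumor and 15.1% in the αCSF1R tumor. The same step left the BF10 spleen at 11.6%.

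Trav14 took a smaller mean share of TRAC UMIs in tumors (12.7% ± 2.71, SD, n = 4 libraries) than in spleens (14.9% ± 2.19) and tdLNs (16.5% ± 0.673). The tumor share was lower than the tdLN share in 4 of 4 treatments, by 3.75 ± 2.42 percentage points (SD of the differences). The spleen share was also lower than the tdLN share in 4 of 4 treatments, by 1.59 ± 2.36 percentage points. The tumor mean was lower than the spleen mean by 2.16 ± 4.30 percentage points, a difference within its spread, and the tumor was the higher in 1 of 4 treatments. No test is given for these differences, since the share was among the values on which the family was selected. When UMIs needed at least 7 reads in place of 3, the spleen mean was above the tdLN mean by 0.351 percentage points. In the αCSF1R and BF10 tdLN libraries only 7.69% and 6.10% of Trav14 UMIs had 7 reads, against 28.4% to 75.5% in the other 10 libraries.

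The families nearest to Trav14 in mean share were Trav7 (15.4% of TRAC UMIs), Trav12 (11.8%) and Trav6 (10.7%). Trav14 was 0.758 times as frequent in the BF10 spleen as in the control IgG spleen, while Trav7 stood at 0.958, Trav12 at 1.09 and Trav6 at 1.10 times. In tumors the Trav14 share relative to control IgG was 1.67 times for BF10, 1.40 times for αCSF1R and 1.61 times for IL-10-Fc. Trav7 stood at 0.945, 1.33 and 1.19 times in these tumors, Trav12 at 1.47, 1.56 and 1.38 times, and Trav6 at 0.791, 0.536 and 0.752 times.

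The files gave the Trav14 chains 19 V region names, of which 3 named a single gene and 1 also named Trav4 genes. Single gene names covered 23.1% of Trav14 UMIs. The 8 names with at least 1000 UMIs held all but 0.662% of them. Trav14-2 or Trav14n-2 was the most frequent name, with 27.6% of Trav14 UMIs and 3.97% ± 0.773 (SD, n = 12) of TRAC UMIs. It was followed by Trav14d-3-dv8 or Trav14n-3 (19.4% of Trav14 UMIs), Trav14-1 or Trav14n-1 (16.5%), Trav14-3 (9.79%), Trav14d-1 (9.14%), a 4-gene name that joins Trav14-1, Trav14-2, Trav14n-1 and Trav14n-2 (8.37%), Trav14-3 or Trav14d-2 (4.41%) and Trav14d-2 (4.14%). These names are those of the analysis portal. On GRCm38, Trav14d-1 and Trav14n-1 differ at 0 of the last 270 bases, as do Trav14d-2 and Trav14n-2, although the files name the members of each pair apart. The names are thus used here as labels of groups of chains rather than as single genes of that build.

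Of the 8 names, 5 had their lowest share in the control IgG tumor library and the other 3 in the αCSF1R tumor library. Trav14-2 or Trav14n-2, for example, had 3.19% of TRAC UMIs in the control IgG tumor and 2.15% in the αCSF1R tumor, against 3.39% to 4.87% in the other 10 libraries. Trav14d-3-dv8 or Trav14n-3 was an exception, with 1.56% in the control IgG tumor, 4.77% in the αCSF1R tumor and 2.28% to 3.33% in the rest. In the αCSF1R tumor library 1 clonotype, described below with the leading chains, made up 2.19% of TRAC UMIs under this name.

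Names with at least 50 UMIs in a treated library and its control IgG library together were compared for a difference of at least 1.5-fold in either direction. In tumors 6 of 9 Trav14 names passed this fold for IL-10-Fc, all of them higher, where 62.7% of all V region names did. For BF10 it was also 6 of 9, all higher, against 71.1% of all names, and for αCSF1R it was 3 of 8 higher and 1 of 8 lower, against 58.3%. In these tumors a Trav14 name thus differed about as often as any V region name. Over all V region names the median ratio to control IgG was 1.40 for IL-10-Fc, 1.52 for BF10 and 0.880 for αCSF1R. Over the Trav14 names it was 1.71, 1.88 and 1.09 in the same order. In spleens 1 of 9 Trav14 names was past the fold for BF10, Trav14-3 or Trav14d-2 at 0.660 times, against 3.17% of all names. The 9 names of the BF10 spleen all stood below their control, between 0.660 and 0.857 times with a median of 0.731, where the median over all names was 1.04. In the other spleens 0 of 9 names were past the fold for IL-10-Fc (5.47% of all names) and 0 of 9 for αCSF1R (4.03%). In tdLNs 1 of 10 names was past the fold for IL-10-Fc (5.47% of all names), a rare 5-gene name at 0.580 times. For αCSF1R 0 of 9 names were past it (14.5% of all names), and for BF10 0 of 10 were (15.4%).

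Traj22 was the most frequent J partner of Trav14 and the most frequent J segment of the other TRAC chains as well. It took 11.9% ± 4.85 (SD, n = 12 libraries) of Trav14 UMIs and 6.54% ± 1.38 of the UMIs of all other TRAC chains, and it was higher in Trav14 in 12 of 12 libraries. In the BF10, αCSF1R, IL-10-Fc and control IgG spleens it held 11.4%, 12.1%, 12.7% and 11.5% of Trav14 UMIs. In tdLNs it held 7.76%, 7.32%, 7.80% and 8.14% in the same order, and in tumors 12.4%, 25.6%, 12.7% and 13.0%. All 4 tdLN libraries lay below all spleen and tumor libraries. Among the other TRAC chains the tissue means were closer, at 7.03% in spleens, 5.89% in tdLNs and 6.71% in tumors.

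The value of the αCSF1R tumor rested on a single clonotype. Of its 757 Traj22 UMIs, 518 belonged to the chain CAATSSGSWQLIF, and without this clonotype Traj22 made up 9.78% of its Trav14 UMIs. Taking the largest Traj22 clonotype out of each of the other libraries left 10.2% to 11.9% in tumors and spleens and 6.73% to 7.52% in tdLNs. Without the αCSF1R tumor library the mean was 10.6% ± 2.33 (n = 11). Counted by clonotypes, Traj22 made up 7.94% of Trav14 chains and 6.19% of the others.

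Traj23 took 4.99% ± 1.13 of Trav14 UMIs, close to its 5.21% ± 0.702 among other TRAC chains, and was higher in Trav14 in 6 of 12 libraries. Its values in the BF10, αCSF1R, IL-10-Fc and control IgG spleens were 5.42%, 4.19%, 4.61% and 5.14%. They were 5.89%, 6.81%, 6.02% and 6.23% in tdLNs and 4.25%, 2.90%, 4.56% and 3.86% in tumors. The tdLN libraries were thus the highest for Traj23 and the lowest for Traj22. The 5 other J segments with the largest mean shares of Trav14 UMIs were Traj31 (5.35%, against 5.61% of other TRAC chains), Traj30 (5.08% against 6.51%), Traj26 (4.84% against 4.48%), Traj12 (4.06% against 3.51%) and Traj37 (3.57% against 3.24%). For Traj31 the control IgG tumor stood apart at 12.5%, with 3.07% to 6.18% in the other 11 libraries. In that tumor the most abundant Trav14 clonotype, which uses Traj31, held 7.03% of Trav14 UMIs.

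**Figure D2:**
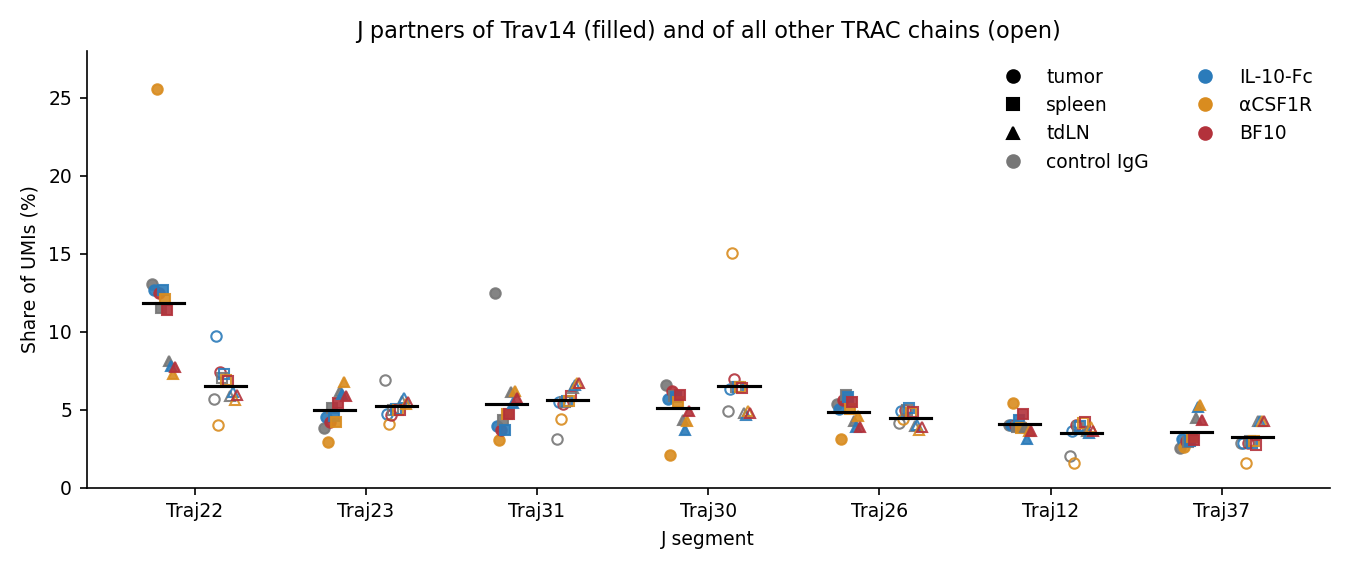
Share of UMIs with each J segment, in percent, for Trav14 chains (filled) and all other TRAC chains (open), 1 point per library, with the tissue as the shape and the treatment as the color. Black lines are means over the 12 libraries. For Traj22 the Trav14 mean was 11.9% against 6.54%, with the αCSF1R tumor at 25.6%, while for Traj23 the means were 4.99% and 5.21%.

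The J partners differed between the Trav14 names. Traj22 made up 17.5% of the UMIs of the 4-gene name (mean of 12 libraries), 15.8% of Trav14d-3-dv8 or Trav14n-3, 12.3% of Trav14-2 or Trav14n-2 and 12.1% of Trav14-3. It made up 7.19% of Trav14-1 or Trav14n-1, 6.96% of Trav14d-1, 5.79% of Trav14-3 or Trav14d-2 and 4.58% of Trav14d-2. The αCSF1R tumor library decided part of these means. Without it the mean of Trav14d-2, at 24.5% in that library with 13 of 53 UMIs, was 2.76%, and that of Trav14d-3-dv8 or Trav14n-3, at 54.7% in that library, was 12.3%.

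The position of the J partner along the locus showed the same spread. The Traj segments span 63.8 kb from Traj61, the most upstream, to Traj1, and the mean distance of the J partner from Traj61 was 34.4 ± 0.573 kb (SD, n = 12) for all Trav14 chains and 35.0 ± 0.497 kb for the other TRAC chains. By name it ran from 19.5 ± 1.27 kb for Trav14d-2 and 27.4 ± 0.951 kb for Trav14-3 or Trav14d-2 to 39.7 ± 1.31 kb for Trav14-3 and 39.9 ± 0.610 kb for the 4-gene name. The 12 libraries of Trav14d-2 (18.2 to 22.5 kb) did not overlap those of Trav14-3 (37.6 to 42.6 kb). Trav14d-1 stood at 30.3 ± 4.39 kb, Trav14d-3-dv8 or Trav14n-3 at 33.9 ± 2.25 kb, Trav14-2 or Trav14n-2 at 34.4 ± 0.548 kb and Trav14-1 or Trav14n-1 at 37.4 ± 2.33 kb, and each of these 4 overlapped the next. On GRCm38 the gene Trav14d-2 lies upstream of Trav14-3, which is the Trav14 gene closest to the Traj segments. Chains named Trav14d-2 cannot be assigned to that gene alone, and a relation between V and J position was not tested.

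**Figure D3:**
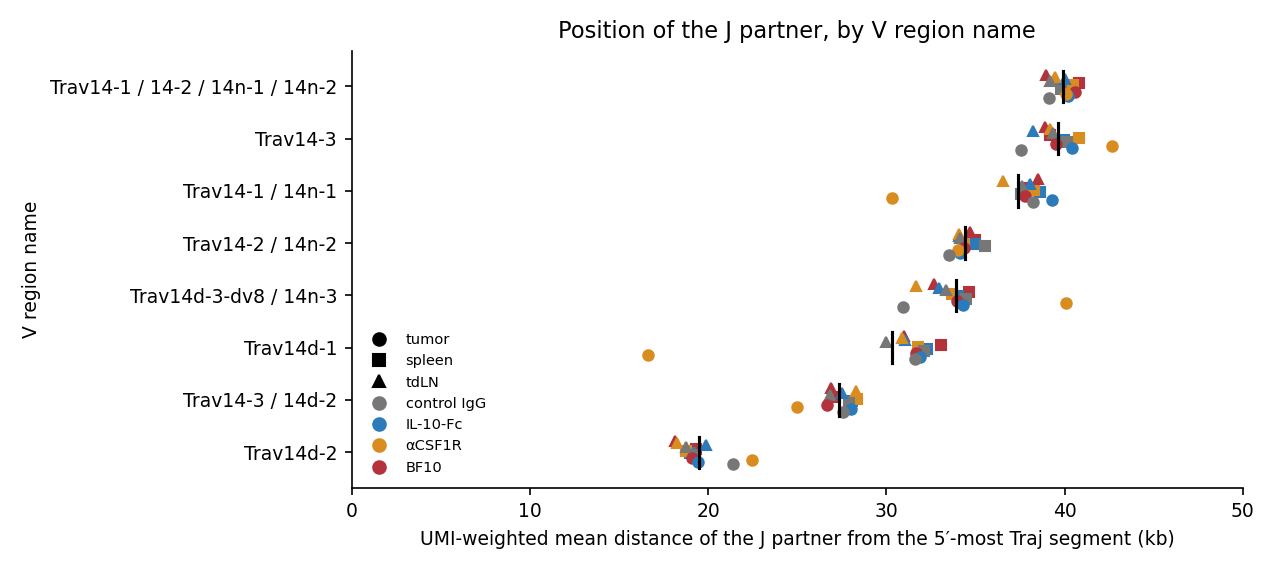
UMI-weighted mean distance of the J partner from the most upstream Traj segment, in kb, for the 8 Trav14 names with at least 1000 UMIs, 1 point per library, with shapes for tissues, colors for treatments and black lines for the means of 12 libraries. Trav14d-2 lay lowest at 19.5 kb and Trav14-3 and the 4-gene name highest at 39.7 and 39.9 kb, and most of the points far from their row are from the αCSF1R tumor library.

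Trav14 CDR3s were slightly shorter than those of other TRAC chains. Counted in residues from the cysteine to the phenylalanine or tryptophan and weighted by UMIs, they had a mean length of 13.46 ± 0.0836 residues (SD, n = 12 libraries), against 13.58 ± 0.0737. Trav14 minus other was -0.118 ± 0.0990 residues, and Trav14 was the shorter in 12 of 12 libraries. The complete codons of the germline V end encode the residues CAAS. CDR3s that begin with CAAS made up 64.8% of Trav14 UMIs (42.5% to 71.3%) and 12.1% of other TRAC UMIs, and those with CAAR made up 8.63% and 1.75%. The start CAAT took 4.66% on average and 20.1% at its highest.

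The joints of Trav14 chains carried fewer bases outside the germline. Such bases are those that match neither the V end nor the J start, read from each end to its first mismatch. They were counted for each chain whose V and J names had a germline match, which left out part of the other TRAC chains. The count can fall below the bases added, because an added base can match the germline by chance. It can also exceed them, because a mismatch within a segment puts the bases beyond it outside the germline. Trav14 chains had 3.00 ± 0.228 such bases (UMI-weighted mean, SD, n = 12 libraries), against 3.38 ± 0.115 for other TRAC chains, and were lower in 12 of 12 libraries. The means were 3.06 for Trav7, 3.32 for Trav12 and 4.34 for Trav6. Chains of germline bases alone made up 15.8% ± 1.45 of Trav14 UMIs and 13.3% ± 1.08 of the others, and were higher in Trav14 in 11 of 12 libraries. The V end was complete in 43.9% ± 4.42 of Trav14 UMIs, against 32.8% ± 0.933. Counted by clonotypes, chains of germline bases alone made up 10.3% and 9.84%. Here Trav14 was higher in 7 of 12 libraries, by 0.501 ± 1.28 percentage points, against 2.52 ± 2.07 by UMIs. The uncut Traj22 joint described below is 1 such chain and held 5121 of the 169703 Trav14 UMIs. The share of germline chains by UMIs without this joint is not given.

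Of 21321 distinct amino acid CDR3s of Trav14 chains, 46 were listed in all 12 libraries, or 0.216%, and 65.3% were listed in 1 library. Over all TRAC chains, with a CDR3 counted once per V family, 0.0928% were listed in all 12. Trav12 had 36 such CDR3s (0.163%), Trav7 had 24 (0.0826%) and Trav6 had 10 (0.0386%). At 23650 TRAC UMIs in every library, the total of the smallest, the expected numbers were 21.2 for Trav14, 16.1 for Trav12, 11.6 for Trav7 and 3.93 for Trav6. The αCSF1R tumor, with 328 Trav14 clonotypes, and the control IgG tumor, with 1089, held the fewest chains that could be shared, and the other 10 libraries listed between 5613 and 10047. Of 181 Trav14 CDR3s listed in 11 libraries, 154 were missing from the αCSF1R tumor and 23 from the control IgG tumor. Without the αCSF1R tumor library, 200 were listed in all of the remaining 11.

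The 46 CDR3s made up 13.8% of Trav14 UMIs in tumors (11.8% to 17.2%), 11.4% in spleens (11.1% to 12.1%) and 8.08% in tdLNs (7.65% to 8.72%). The αCSF1R tumor, where the share was highest, and the control IgG tumor largely decided which CDR3s were among the 46. The list can therefore favor chains that were abundant in tumors, and its part in the order of the tissues was not tested. The 46 CDR3s were 12 to 15 residues long, with a mean of 13.5, and 38 of the 46 began with CAAS. They used 21 J segments, with Traj22 in 7, Traj12 in 5 and Traj23 in 2. Their leading nucleotide form was made of germline bases alone in 18 of 46 and had at most 2 other bases in 35, with 5 as the highest number. Each was encoded by several nucleotide sequences, from 2 to 43 with a median of 7.

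Among distinct nucleotide CDR3s of Trav14, the number of bases outside the germline was lower the more libraries listed the sequence. The mean was 5.50 bases for the 25851 sequences of 1 library, 3.41 for those of 2 libraries, 2.79 for 3 to 4, 2.20 for 5 to 8, 1.55 for 9 to 11 and 1.14 for the 29 sequences of all 12. The share of sequences made of germline bases alone went up in the same order from 0.677% to 48.3%, which was 14 of 29. The mean CDR3 length went from 13.66 residues in 1 library to 13.52 in 2, 13.43 in 3 to 4, 13.34 in 5 to 8 and 13.32 in 9 to 11, and was 13.62 for the 29 sequences of all 12. The median number of UMIs per sequence also went up in that order, from 1 to 147. Its part in the pattern, and that of mismatches within a segment, was not tested.

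**Figure D4:**
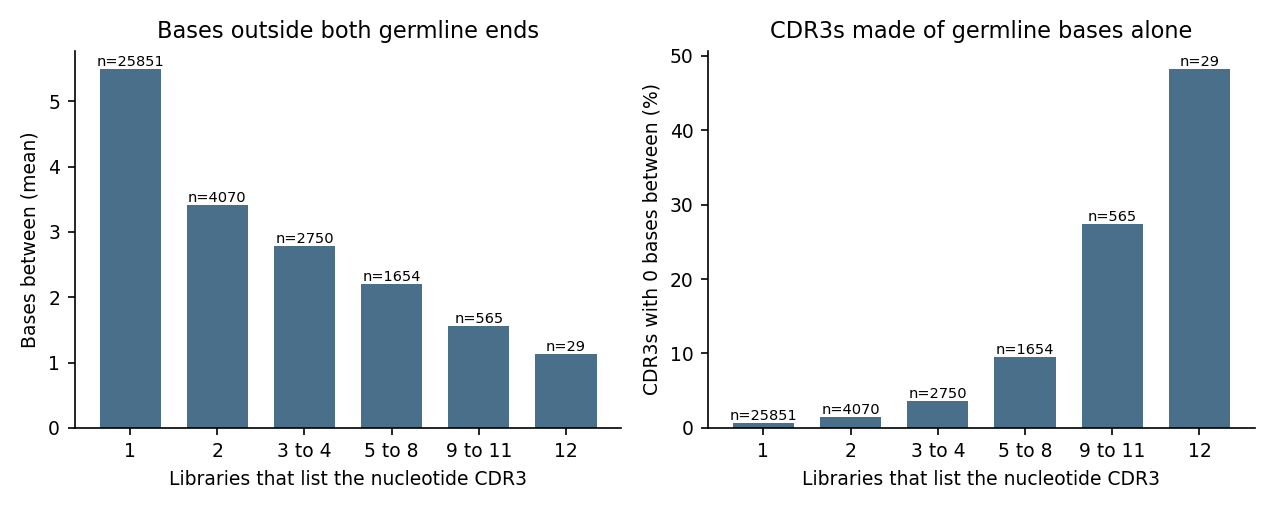
Left, mean number of bases outside both germline ends. Right, percent of sequences with 0 such bases. Both are plotted for distinct Trav14 nucleotide CDR3s grouped by the number of libraries that list them, with the number of sequences above each bar. The mean went from 5.50 to 1.14 bases and the share of germline sequences from 0.677% to 48.3%.

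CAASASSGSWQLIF with Traj22 was the most abundant of the shared Trav14 chains, at a mean of 0.511% ± 0.160 (SD, n = 12) of TRAC UMIs, 5.46 times the next. In the BF10, αCSF1R, IL-10-Fc and control IgG spleens it held 0.484% (0.446% to 0.525%), 0.698% (0.650% to 0.749%), 0.743% (0.696% to 0.793%) and 0.695% (0.649% to 0.745%) of TRAC UMIs. In tdLNs it held 0.388% (0.340% to 0.443%), 0.382% (0.337% to 0.432%), 0.433% (0.400% to 0.470%) and 0.379% (0.343% to 0.419%) in the same order. In tumors it held 0.594% (0.552% to 0.640%), 0.283% (0.223% to 0.360%), 0.669% (0.620% to 0.722%) and 0.378% (0.338% to 0.423%). All 4 spleen libraries lay above all tdLN libraries, and the tumors spread over both ranges, with IL-10-Fc and BF10 in the spleen range and control IgG and αCSF1R at or below the tdLN range. It was the most abundant amino acid CDR3 of all TRAC chains in 8 of the 12 libraries, and ranked 25 in the control IgG tumor and 27 in the αCSF1R tumor.

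The uncut joint printed above accounted for 5121 of its 6219 Trav14 UMIs, or 82.3%, and for 77.8% to 87.3% within each library. The second form printed above added 7.62%, and 41 other forms made up the rest. Beyond the Trav14 chains, 458 UMIs of the same amino acid CDR3 carried another V region name. The uncut joint was listed as 92 clonotypes, because it appeared under up to 9 Trav14 names within a library. Trav14-2 or Trav14n-2 gave 32.7% of its UMIs (27.6% of all Trav14 UMIs), Trav14d-3-dv8 or Trav14n-3 gave 25.1% (19.4%), Trav14-3 gave 13.8% (9.79%) and Trav14-1 or Trav14n-1 gave 8.16% (16.5%). When the chain was left out, Traj22 made up 7.41% to 8.32% of Trav14 UMIs in spleens, 5.21% to 5.87% in tdLNs and 8.41% to 9.22% in 3 of the tumors, with 23.8% in the αCSF1R tumor.

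**Figure D5:**
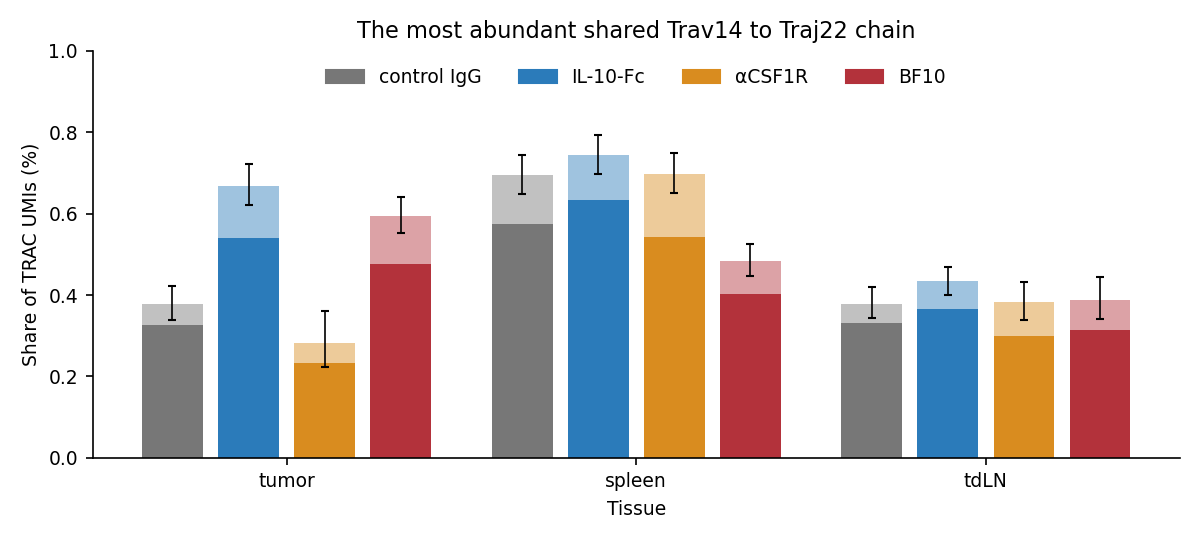
Share of TRAC UMIs held by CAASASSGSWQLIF with Trav14 and Traj22, in percent, 1 library per bar, with the uncut V to J joint in full color, the other nucleotide forms in pale color and 95% Wilson intervals of the sum. Spleens stood at 0.484% to 0.743%, tdLNs at 0.379% to 0.433% and tumors at 0.283% to 0.669%.

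An uncut joint of Trav14 is not abundant with every J segment. Of 45 Traj segments with a readable CDR3 part, 24 give an in-frame CDR3 without a stop codon when joined to the complete 13-base V end, and 23 of these joints were listed in at least 1 library. Traj22 led with 5121 UMIs, followed by Traj13 with 929, Traj31 with 259, Traj45 with 189 and Traj26 with 164, and the median was 24.5. The joints with Traj22, Traj13 and Traj23 were listed in all 12 libraries. The Traj23 joint, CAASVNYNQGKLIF, had 115 UMIs, although Traj23 was the J partner with the fourth largest mean share in the family. The most abundant shared Traj23 chain was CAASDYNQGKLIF instead, with 380 UMIs, in which the leading form keeps the whole V end and 26 of the 29 bases of Traj23.

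The other shared chains were far less abundant. The chain led by the uncut Traj13 joint held 0.0936% of TRAC UMIs on average (0.050% to 0.12%) and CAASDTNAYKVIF (Traj30) held 0.0780% (0.0127% to 0.163%). Both were led by a form of germline bases alone, which made up 87.1% and 83.6% of their UMIs. Next came a Traj12 chain of 14 residues at 0.0688%, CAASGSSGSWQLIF (Traj22) at 0.0587%, a Traj12 chain of 13 residues at 0.0564% and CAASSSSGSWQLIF (Traj22) at 0.0480%. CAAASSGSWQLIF (Traj22) held 0.0334% and ranged from 0.00375% in the control IgG tumor to 0.110% in the BF10 tumor. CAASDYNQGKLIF (Traj23) held 0.0318% and had the same lowest library, with its highest value of 0.0576% in the IL-10-Fc tdLN. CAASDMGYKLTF (Traj9), a Traj56 chain of 14 residues and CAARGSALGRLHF (Traj18) closed the 12 largest with 0.0287%, 0.0282% and 0.0266%. A share worth 3 UMIs is about the largest that a count of 0 UMIs in a library would still allow. It was 0.0127% of TRAC UMIs in the αCSF1R tumor and 0.00219% to 0.00537% in the other 11 libraries. The lowest values of several of these chains were at or under it and so rested on at most 3 UMIs. A CDR3 counted as listed with any number of UMIs.

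The most abundant Trav14 clonotype was the uncut Traj22 joint in 8 of 12 libraries, namely all 4 spleens, the control IgG and BF10 tdLNs and the IL-10-Fc and BF10 tumors. It held 0.106% to 0.191% of TRAC UMIs there, under the name Trav14-2 or Trav14n-2 except in the BF10 tumor, where the name was Trav14d-3-dv8 or Trav14n-3. The 4 other libraries were led by chains with fewer libraries in common, and these are printed with the bases as listed. The chains of the 2 tumors made up 7.03% and 17.5% of the Trav14 UMIs of their libraries, and those of the 2 tdLNs 0.849% and 1.17%.
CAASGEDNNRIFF, control IgG tumor: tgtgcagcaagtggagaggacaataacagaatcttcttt
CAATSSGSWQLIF, αCSF1R tumor: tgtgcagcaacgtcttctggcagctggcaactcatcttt
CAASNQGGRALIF, IL-10-Fc tdLN: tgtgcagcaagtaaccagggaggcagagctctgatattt
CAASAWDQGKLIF, αCSF1R tdLN: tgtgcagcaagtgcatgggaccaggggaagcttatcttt

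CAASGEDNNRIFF, with Trav14-2 or Trav14n-2 and Traj31, had 504 UMIs in the control IgG tumor, or 0.631% (0.578% to 0.688%) of TRAC UMIs, and was listed in 2 libraries. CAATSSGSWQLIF, with Trav14d-3-dv8 or Trav14n-3 and Traj22, had 518 UMIs in the αCSF1R tumor, or 2.19% (2.01% to 2.38%). The clonotype with the bases printed above was listed in that library alone. Whether the same residues were listed elsewhere with other bases is not given. This clonotype shares its last residues with the public Traj22 chains and has 2 bases outside the germline. The leading forms of the Traj22 chains listed in all 12 libraries have 0 to 4 such bases. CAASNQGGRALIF, with Trav14-1 or Trav14n-1 and Traj15, had 187 UMIs in the IL-10-Fc tdLN and was listed in 6 libraries. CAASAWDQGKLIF, with Trav14d-1 and Traj23, had 132 UMIs in the αCSF1R tdLN and carried 6 bases outside the germline. With the bases printed above it was listed in that library alone. Trav14 clonotypes were more concentrated in 2 tumors than elsewhere. The 10 most abundant held 45.7% of Trav14 UMIs in the αCSF1R tumor and 17.2% in the control IgG tumor, against 2.76% to 5.34% in the other 10 libraries. This was not particular to Trav14. The other TRAC chains had 9.84 and 8.68 UMIs per clonotype in these tumors, against 9.03 and 6.58 for Trav14. In the other 10 libraries the other TRAC chains had 1.43 to 2.67.

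Trav14 names also appeared in delta chains. Of 37117 UMIs with the delta constant region, 898 carried a V region name that began with a Trav14 gene, or 2.42%, in 457 clonotypes. In the αCSF1R tumor 0 of 1098 delta UMIs did, which allows a share of up to 0.273%, and in the other 11 libraries the share lay between 0.545% and 5.48%. These delta UMIs were not split by name, so the part of Trav14d-3-dv8 among them is not given.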

How the data were processed

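The authors grouped reads by UMI in the QIAGEN analysis portal and deposited raw counts of UMIs per clonotype at minimums of 3 to 7 reads. The labels name the build mm10; the portal's germline reference is not given in the sources used here. Counts with at least 3 reads were used, with 23650 to 137078 TRAC UMIs per library. Trav14 chains were all TRAC clonotypes whose V region name began with a Trav14 gene. The named items were every Trav14 name, Traj22, Traj23 and the next 5 J segments, the 12 largest CDR3s of all 12 libraries, the largest Trav14 clonotype per library and the 3 V families nearest in share. The members and lists were chosen with earlier results of these data known. Germline ends were read from GRCm38, and 109 of 116 V names and 41 of 41 J names matched. Shares have Wilson intervals. A planned exact permutation test of the share between tissues is not given, since the share was among the values on which the family was selected. Alternatives were other read and UMI minimums, clonotype weighting, single gene names, equal depth and left-out libraries. Steps were tested on simulated data. Biopython 1.88, matplotlib 3.10.9, scipy 1.17.1, pandas 2.3.3, numpy 2.4.6 and Python 3.11.15 were used. The authors' fractions and the other chains, apart from the delta chains, were not used.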

Additional observations from a re-analysis of the deposited data

How the results depend on the processing

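The number of Trav14 amino acid CDR3s listed in all 12 libraries, 46 with any number of UMIs, fell to 33 with at least 2 UMIs in each library. It fell to 14 with UMIs of at least 7 reads, to an expected 21.2 at the smallest TRAC total and to 29 for nucleotide CDR3s. It ranged from 46 to 573 when a treatment, a tissue or the αCSF1R tumor library was left out, the last being chosen after seeing the data. It was 573 without tumors, 211 without αCSF1R and 75 without control IgG. The difference of spleen minus tdLN in the Trav14 share of TRAC UMIs, -1.59 percentage points, turned to 0.351 with UMIs of at least 7 reads, and the cause was not tested. Left-out treatments gave -2.07 to -0.426 for spleen minus tdLN, -4.46 to -2.74 for tumor minus tdLN and -3.92 to -0.671 for tumor minus spleen. Taken as unpaired groups, tumor minus tdLN is -3.75 by construction, since both ways give the same difference of means. The Traj23 share and the mean CDR3 length moved by less than the spread between libraries under the alternatives run for them. The Traj22 share of 11.9% was 7.94% by clonotypes, a move within the SD of 4.85 over 12 libraries but beyond the SD of 2.33 without the αCSF1R tumor. No paired analysis by replicate number was possible because each group had 1 library. The count of shared chains cannot exceed the number of chains in any library. TRAC UMIs and Trav14 clonotypes did not rank the libraries alike. The control IgG tumor listed 1089 Trav14 clonotypes among 79926 TRAC UMIs, while the BF10 tdLN listed 6374 among 55901. Of their Trav14 UMIs, 51.7% and 6.10% had 7 reads. The part of these differences in the count of shared chains was not tested.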
